A study of Mus musculus with 14 samples.

Results

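The assays described here read miRNAs that are rich in brain and nerve, measured in the plasma of mice with osteosarcoma (OS) and of healthy mice. They were chosen by name: every well of the qPCR panels whose deposited name, without species prefix, arm suffix, copy number and star, was miR-124, miR-9, miR-128, miR-129, miR-132, miR-137, miR-138, miR-219 or miR-338. This gave 11 assays in 11 wells, of 389 named miRNAs in 392 named wells. The qPCR gave each well a quantification cycle (Cq), on which 1 cycle is a factor of 2 at full primer efficiency and a lower value means more RNA.

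Plasma came from 14 mice. The 6 control mice were healthy wild-type littermates (p53+/+, with the Cre transgene in the study's genotyping scheme). The 8 mice with OS came from a genetically engineered model in which a 2.3 kb Col-α1(I) promoter drives Cre recombinase in osteoblasts and deletes a single floxed Trp53 allele (F/+) or both (F/F); the sources used here do not say which of the 8 carried which genotype or how old each mouse was. Blood was drawn by cardiac puncture, from the mice with OS once a tumor had developed, and each mouse gave 1 plasma sample. Mice are called below by the numbers in their sample names.

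A mature miRNA is a short RNA cut from a hairpin precursor, and the bases near its 5′ end, the seed, pair with target mRNAs. Neurons are rich in miR-124, miR-9, miR-128, miR-129, miR-132, miR-137 and miR-138, which act in neuronal differentiation, dendrite growth and synaptic activity. Oligodendrocytes, the myelinating cells of the brain and spinal cord, are rich in miR-219 and miR-338, which are required for normal myelination. In plasma, miRNAs come from blood cells, vessels and organs, and for a plasma level the number of source cells and the amount each cell releases cannot be told apart.

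The mature sequences of the assayed miRNAs are printed because the seed sets which mRNAs each of them can pair with. They are RefSeq entries (GRCm38.p6), written 5′ to 3′ with the seed, bases 2 to 8, in capitals. Of the 11 assays, 9 were matched; names that carry no arm were read as the arm that the older nomenclature meant. miR-124 and the assay with the rat name rno-miR-338 are named only.
mmu-miR-128: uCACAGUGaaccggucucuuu
mmu-miR-132: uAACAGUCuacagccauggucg
mmu-miR-138: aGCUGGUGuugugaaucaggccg
mmu-miR-137: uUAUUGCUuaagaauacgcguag
mmu-miR-9: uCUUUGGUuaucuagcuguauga
mmu-miR-129-2-3p: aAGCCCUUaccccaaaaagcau
mmu-miR-219-5p: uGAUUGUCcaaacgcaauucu
mmu-miR-338-3p: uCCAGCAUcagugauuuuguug
mmu-miR-338-5p: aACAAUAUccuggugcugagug

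The 9 sequences held 9 different seeds, and they are encoded at 14 mature positions because several come from more than 1 gene copy. miR-129-2-3p lies at chr2:94241376-94241397 on the minus strand, in the hairpin of Mir129-2, outside the span of any other gene in the annotation table used here. Both arms of miR-338 come from the same hairpin on the minus strand of chromosome 11, the 3p arm at chr11:120014781-120014802 and the 5p arm at chr11:120014816-120014837, within the span of Aatk, a gene for a neuronal kinase. miR-132 lies at chr11:75173723-75173744 on the plus strand, outside other gene spans. miR-128 has copies within the spans of R3hdm1 and Arpp21, and miR-9 has 2 of its 3 copies within long non-coding RNA genes. Of the 1679 mature miRNAs in the table, 1 other shares a seed with any of these 9 sequences: miR-212-3p, whose seed is that of miR-132. The seeds of miR-124 and rno-miR-338 were not searched.

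The plasma was checked against markers of the cells that feed it. The red-cell miRNA miR-451 ranked 3 among 388 miRNAs by mean level, the liver miRNA miR-122 ranked 5 and the myeloid miRNA miR-223 ranked 14. All 3 red-cell, all 5 white-cell, all 3 platelet and vessel and both liver marker assays were detected in every mouse, as were 3 of 4 skeletal muscle assays. Between 333 and 387 of the 389 named miRNAs were detected per mouse, and the global mean Cq ran from 30.59 to 32.84 in controls and from 31.65 to 32.86 in mice with OS. A haemolysis marker, the Cq of miR-23a minus that of miR-451, which is higher when more red-cell RNA is present, ran from 4.11 to 7.21 in controls and from 1.05 to 6.85 in mice with OS (difference −1.58, p = 0.117 in a two-sided exact permutation test).

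Most of the named brain and nerve assays gave a signal in most plasma samples, though several lay close to the limit of the method. With detection set at a Cq of 37 or less, 7 of the 11 assays were detected in all 14 mice: miR-128, rno-miR-338, miR-219-5p, miR-132, miR-338-3p, miR-138 and miR-124. Over all named miRNAs the share was 71.0%. Both shares cover only the 392 of 768 wells that carry a name, and unnamed wells may hold further brain and nerve assays. The names come from the authors' comparison, before which the paper removed miRNAs missing in 75% or more of the samples. Whether that left wells unnamed is not stated. miR-137 was detected in 13 mice, miR-338-5p in 10, and miR-9 and miR-129-2-3p in 9 each. Of the 154 measurements, 14 had a Cq above 37, 1 of them at the cap of 40, and 1 well was blank. Another 17 fell between 36 and 37.

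No difference in detection between the groups passed a test. Each mouse showed 8 to 11 of the 11 assays, with a mean of 10.0 ± 1.26 for controls (SD, n = 6) and 9.88 ± 0.641 for mice with OS (SD, n = 8) (exact permutation test, two-sided, p = 1.0). miR-129-2-3p was detected in 3 of 6 controls and 6 of 8 mice with OS, miR-9 in 5 controls and 4 mice with OS, miR-338-5p in 5 and 5, and miR-137 in 5 and 8. The smallest p among the 11 was 0.301, for miR-9 (Fisher's exact test, two-sided). Over all 389 miRNAs the same test called 0.0% after Benjamini-Hochberg adjustment, and 1 had an unadjusted p under 0.05.

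**Figure D1:**
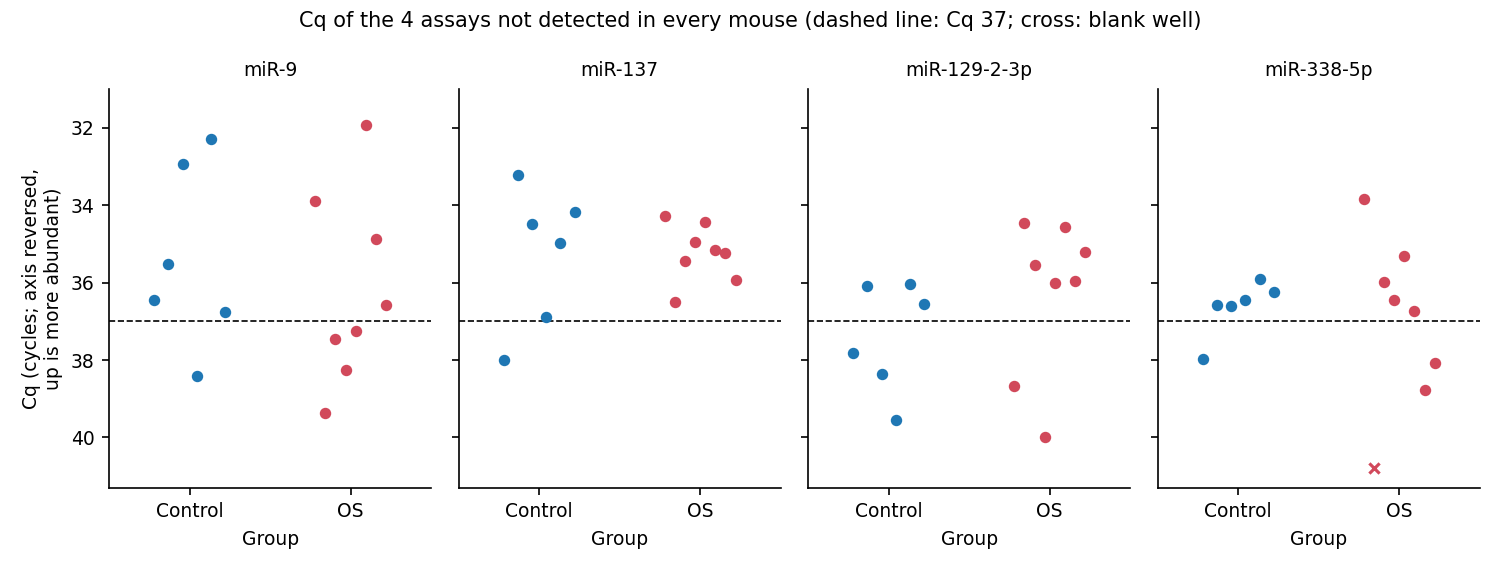
Cq of the 4 assays not detected in every mouse, with 1 point per mouse, controls on the left and mice with OS on the right of each panel; the axis is reversed so that more RNA is up, the dashed line is Cq 37 and the cross is a blank well. For miR-129-2-3p the 3 detected controls lie at 36.04 to 36.56 and the 6 detected mice with OS at 34.47 to 36.01.

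To compare mice, each Cq was subtracted from the mouse's global mean Cq, so that a level of 0 is the mean over the kept miRNAs of that mouse and each unit is a factor of 2. Levels of different assays also differ by primer efficiency, so their order is that of the readout. miR-128, which dampens neuronal excitability, had the highest level of the 11 and ranked 107 of 388. rno-miR-338 (147), miR-219-5p (151), miR-132 (161) and miR-338-3p (200) lay near the middle, and miR-138 ranked 244, which was also the median place of the 11. The lower end held miR-9 (278), miR-124 (304), miR-137 (312), miR-129-2-3p (358) and miR-338-5p (384). These places rest on mice with a value, 9 for miR-9 and for miR-129-2-3p, 10 for miR-338-5p and 13 for miR-137. The mean of such an assay leaves out its lowest mice, so its place is too high. By median Cq, with values above the limit included, miR-9 (36.51) and miR-338-5p (36.46) were the last of the 11. Their order is not settled, because the blank well of miR-338-5p is left out of its median. miR-129-2-3p stood at 36.07, miR-124 at 35.27 and miR-137 at 35.06. miR-124, among the most abundant miRNAs of neurons, was in the lower part of the plasma profile.

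Only the top step of this order was larger than its spread over mice. miR-128 exceeded rno-miR-338 by 1.26 ± 0.82 (SD, n = 14) on the log2 scale, in 14 of 14 mice. Each of the other 9 neighbouring pairs differed by less than the SD of that difference. miR-132 exceeded miR-338-3p by 1.08 ± 1.33 in 12 of 14 mice, and miR-338-3p exceeded miR-138 by 1.10 ± 1.20 in 12 of 14. The remaining neighbours were apart by 0.04 to 0.75.

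**Figure D2:**
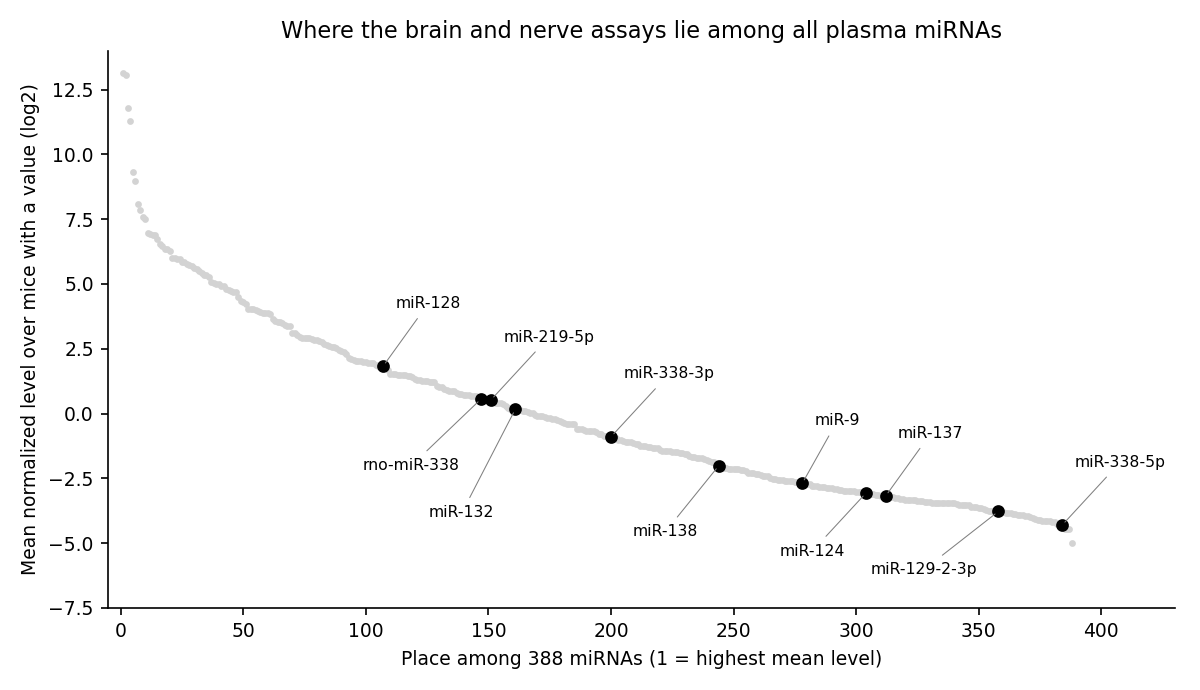
Mean normalized level (log2, over mice with a value) of all 388 miRNAs against their place in the order of levels; black points are the 11 brain and nerve assays. They run from place 107 (miR-128) to place 384 (miR-338-5p), and 4 of the 11 lie in the upper part, at or above place 194.

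The comparison of mice with OS and controls addressed which plasma miRNAs differ between the groups. All mice with OS carried floxed Trp53 and all controls were p53+/+, so tumor and genotype cannot be told apart. Of the 11 assays, 1 was called higher in OS (miR-129-2-3p), 0 lower, and 10 did not pass limma's test at an adjusted p under 0.05 over all 388 miRNAs. Over all miRNAs, 6.19% were called higher and 6.44% lower. At an unadjusted p under 0.05, 5 of the 11 passed, against 30.7% of all miRNAs. These were miR-129-2-3p, miR-132 and miR-338-5p with higher estimates and miR-338-3p and rno-miR-338 with lower ones. The median difference of the 11 was 0.17 on the log2 scale, against −0.00 over all miRNAs, with 7 estimates above 0 and 4 below.

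**Figure D3:**
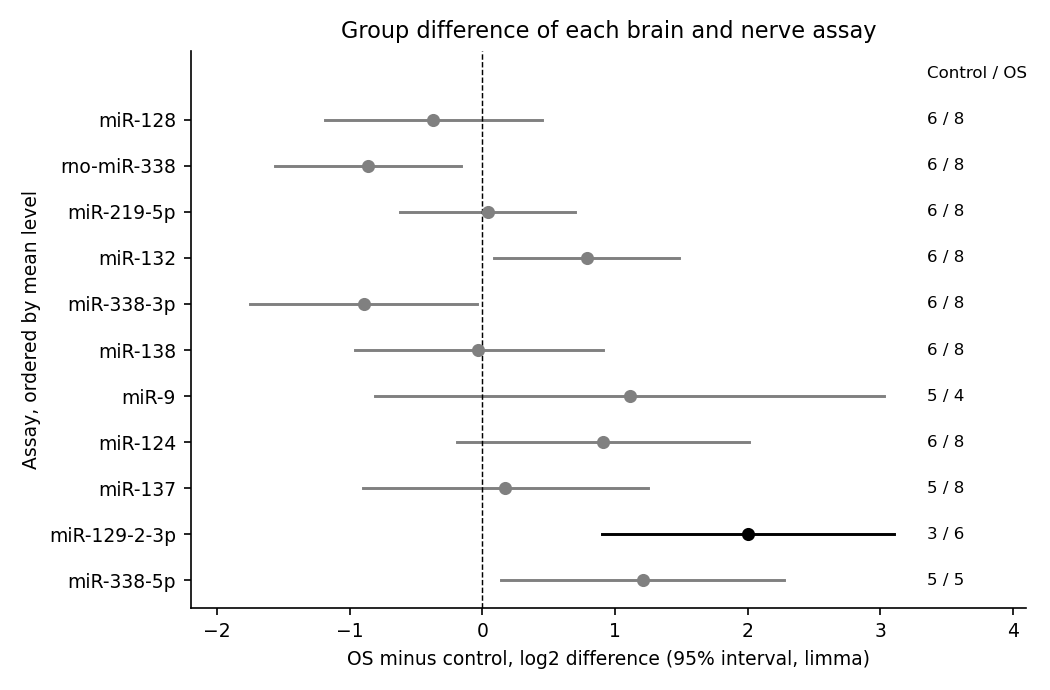
OS minus control difference in normalized level (log2) of each assay, with its 95% interval from limma; black marks the assay with an adjusted p under 0.05, grey the others, and the numbers at the right are the mice with a value in each group. miR-129-2-3p stands at 2.00 with an interval of 0.90 to 3.10, and the intervals of the 6 assays without an unadjusted p under 0.05 include 0.

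mmu-miR-129-2-3p, a brain-enriched miRNA, was the assay called. Its Cq in controls was 36.10 in mouse 2, 36.04 in mouse 13 and 36.56 in mouse 14, while mice 1, 3 and 4 gave 37.82, 38.37 and 39.56 and counted as undetected. In mice with OS it was 34.47 in mouse 11, 35.54 in mouse 12, 36.01 in mouse 16, 34.56 in mouse 17, 35.95 in mouse 18 and 35.21 in mouse 19. Mouse 10 gave 38.68 and mouse 15 stood at the cap of 40, so both groups held mice without a level.

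On the normalized scale the 3 detected controls had levels of −4.59, −5.45 and −5.31 for miR-129-2-3p. The 6 detected mice with OS had −2.70, −3.09, −4.36, −2.74, −3.46 and −2.35. All 6 lay above all 3 controls, with mouse 16 closest to them. The share of all miRNAs whose groups lay apart in this way is not given here. The means were −5.12 ± 0.46 (SD, n = 3) and −3.12 ± 0.72 (SD, n = 6), a difference of 2.00 (SE 0.51), or 4.00-fold (limma adjusted p = 0.0261). The exact permutation test gave p = 0.0119, two-sided, the smallest p its 84 splits can give.

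This call rested on few mice near the detection limit. It was lost when control 13 (limma adjusted p = 0.0901), control 14 (adjusted p = 0.0933) or OS mouse 11 (adjusted p = 0.0511) was left out. It passed in the other 11 of 14 such fits, but controls 1, 3 and 4 and OS mice 10 and 15 had no level to remove. In the fits without 1 of these mice the difference stayed at 2.00 to 2.01, so they hardly tested the call. The call was also lost with missing values set to Cq 38 (difference 1.63, limma adjusted p = 0.0826), with a Cq limit just under the cap, which brings in 6 controls and 7 mice with OS (2.09, adjusted p = 0.0554), with unscaled Cq (0.94, adjusted p = 0.359) and in a fit that took in the haemolysis marker (1.53, adjusted p = 0.220). With the undetected mice ranked lowest, the mean rank in OS was 4.38 higher over all 14 mice (exact permutation test, two-sided, p = 0.0533). Leaving out the 2 controls with a haemolysis marker over 7 gave 1.83, and leaving out the 3 mice with OS with a marker under 3 gave 1.90, both with a limma adjusted p of 0.112.

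miR-132, which neuronal activity induces and which promotes dendrite growth, was detected in every mouse. Its level in controls ran from −0.71 to 0.18 with a median of −0.18, and in mice with OS from −0.46 to 1.33 with a median of 0.59. Mice 10, 11, 12, 16, 17 and 19 lay above all controls, and mice 15 and 18 lay within their range. The difference was 0.79 (SE 0.33), with an unadjusted exact permutation p of 0.0153 and a limma adjusted p of 0.124. It was 0.51 in the fit with the haemolysis marker and 0.35 with unscaled Cq (limma adjusted p = 0.443 and 0.691).

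miR-212-3p is made from a hairpin 203 bases from that of miR-132 and shares its seed. It is no part of the 11 and was measured here because it belongs to a list of other nervous-system miRNAs.
mmu-miR-132: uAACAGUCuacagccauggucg
mmu-miR-212-3p: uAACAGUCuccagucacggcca
Capitals again mark the seed, and the sequences differ only downstream of it. The miR-212-3p level ran from −2.90 to −1.49 in controls and from −2.17 to 0.97 in mice with OS, with a difference of 1.60 (SE 0.49, limma adjusted p = 0.0407), and the ranges overlapped. This call held in 4 of the 14 fits that left out a mouse (limma adjusted p from 0.0189 to 0.100 over the 14), and it was lost in the fit with the haemolysis marker (difference 1.04, adjusted p = 0.278). Within a mouse, miR-212-3p stood at −1.99 ± 0.26 relative to miR-132 in controls (SD, n = 6) and at −1.17 ± 0.88 in mice with OS (SD, n = 8). The difference between the groups was 0.81 (exact permutation test, two-sided, p = 0.0546, adjusted p = 0.0819 over 3 within-mouse comparisons).

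The other nervous-system list held 14 assays. Of these, 1 was called higher in OS (miR-212-3p), 0 lower and 13 did not pass, against 6.19% called higher and 6.44% lower over all miRNAs. The median difference of the 14 was 0.04. The next smallest p-values belonged to miR-874, at 1.15 (SE 0.41, limma adjusted p = 0.0748), and miR-139-3p, at 1.25 (SE 0.45, limma adjusted p = 0.0787).

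miR-338 was read by 3 assays: the 3p arm and the rat-named assay on panel I and the 5p arm on panel II. The sources used here do not give the arm that the rat-named assay reads. Its level and that of miR-338-3p ran together over mice, with miR-338-3p lower by 1.47 ± 0.30 in mean (SD, n = 14). That gap was −1.45 in controls and −1.48 in mice with OS (difference −0.03, exact permutation test, two-sided, p = 0.837). The 5 assays with an unadjusted p under 0.05 include both of these.

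miR-338-3p had levels from −1.08 to 0.07 in controls, with a median of −0.33, and from −2.69 to −0.03 in mice with OS, with a median of −1.27. OS mice 10, 11, 12 and 19, at −2.09, −2.69, −1.61 and −1.78, lay below all controls, and the other 4 lay within the control range. The difference was −0.89 (SE 0.41, limma adjusted p = 0.146). rno-miR-338 had levels from 0.72 to 1.27 in controls and from −0.68 to 0.97 in mice with OS. Here 6 of the 8 mice with OS lay below all controls, and the difference was −0.86 (SE 0.34, limma adjusted p = 0.101, unadjusted exact permutation p = 0.0110). OS mice 10, 11 and 12 also had the 3 lowest haemolysis markers of the 14 mice, at 1.05, 2.97 and 2.59. Without them the differences were −0.38 for miR-338-3p and −0.44 for rno-miR-338 (limma adjusted p = 0.621 and 0.505). In the fit with the haemolysis marker they were −0.53 and −0.56.

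miR-338-5p, the other arm of the same hairpin, had the lowest mean level of the 11 assays over mice with a value. Its level in controls was −5.06, −4.82, −4.34 and −5.32 in mice 2, 3, 4 and 13, and mouse 14 lay between mice 2 and 3. In mice with OS it was −2.12, −3.54, −4.29, −3.65 and −4.91 in mice 10, 12, 15, 16 and 17. All these mice with OS other than mouse 17 lay above all detected controls, while control 1 and OS mice 11, 18 and 19 gave no level. The difference was 1.21 (SE 0.50, limma adjusted p = 0.124), and of all the fits run it passed only in that without OS mouse 17 (1.52, limma adjusted p = 0.0466). It was 0.52 in the fit with the haemolysis marker, 0.63 without OS mice 10, 11 and 12, and 0.74 with each panel scaled to its own mean (limma adjusted p = 0.643, 0.510 and 0.296). It was 0.69 with unscaled Cq.

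The 2 arms of miR-338 were compared within each mouse that had both. miR-338-3p exceeded miR-338-5p by 4.83, 4.64, 4.41, 4.89 and 3.92 in controls 2, 3, 4, 13 and 14. In OS mice 10, 12, 15, 16 and 17 the excess was 0.03, 1.93, 4.26, 3.10 and 3.99. Mouse 10 had nearly equal readouts of both arms, and mice 15 and 17 lay within the control range. Controls had a mean excess of 4.54 ± 0.39 (SD, n = 5) and mice with OS of 2.66 ± 1.73 (SD, n = 5), a difference of −1.88 (exact permutation test, two-sided, p = 0.0238, adjusted p = 0.0714 over the 3 within-mouse comparisons). Without OS mouse 10, which had the lowest haemolysis marker, it was −1.22 (p = 0.0317, exact permutation). With the Cq limit just under the cap it was −1.35 (p = 0.0950, exact permutation). The arms were read on different panels, so arm and panel cannot be told apart in the size of the excess.

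**Figure D4:**
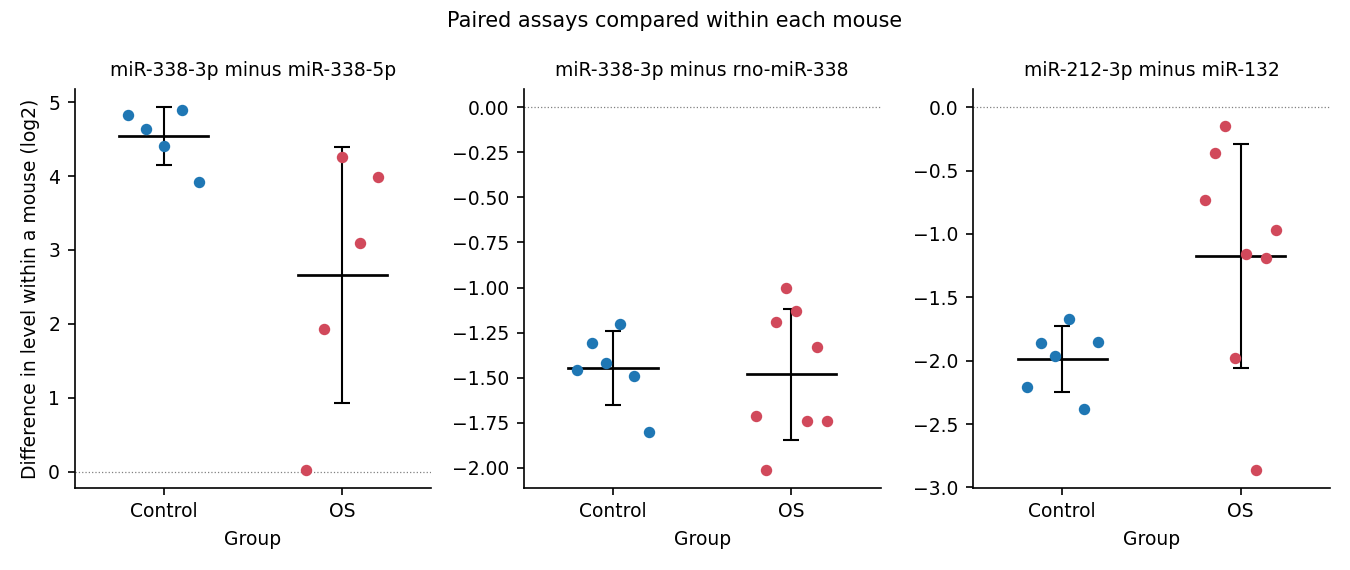
Difference in normalized level (log2) between paired assays within each mouse, with 1 point per mouse, lines for the mean and bars for the SD of each group; the vertical scale differs between panels. The excess of miR-338-3p over miR-338-5p is 3.92 to 4.89 in controls and 0.03 to 4.26 in mice with OS, while miR-338-3p and rno-miR-338 keep a gap of −1.45 and −1.48 in the group means.

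miR-219-5p, with miR-338 a driver of oligodendrocyte maturation, varied little. Control levels were 0.50 ± 0.36 (SD, n = 6; −0.13 to 0.85, median 0.65) and levels with OS 0.54 ± 0.49 (SD, n = 8; −0.35 to 1.19, median 0.57). The difference was 0.04 with a 95% interval of −0.62 to 0.70 (limma adjusted p = 0.957), and its sign turned with the scaling. Its SD within groups was 0.44, against a median of 0.83 over all miRNAs.

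miR-128 stood at 2.04 ± 0.80 in the control group (SD, n = 6; 1.39 to 3.60, median 1.77) and 1.67 ± 0.60 in mice with OS (SD, n = 8; 0.48 to 2.48, median 1.60). Control 13 lay far above the other controls and OS mouse 10 below the other mice with OS. The difference was −0.37 (SE 0.39, limma adjusted p = 0.550), and it was −0.07 without control 13 and −0.19 without OS mouse 10. miR-138, which limits the size of dendritic spines, had levels of −1.99 ± 0.78 in controls and −2.02 ± 0.88 in mice with OS, and both groups spanned more than 2 units. Its difference of −0.03 had an interval of −0.96 to 0.91 and no stable sign.

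miR-124 was detected in every mouse at Cq 32.27 to 36.17. Its level ran from −4.67 to −2.83 in controls, with a median of −3.32, and from −3.69 to 0.22 in mice with OS, with a median of −2.90. OS mouse 18 was at 0.22, 2.78 above the next mouse with OS, and its Cq of 32.27 was the lowest of the 14. The difference was 0.91 (SE 0.52, limma adjusted p = 0.242), and it was 0.49 without OS mouse 18.

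miR-9, a miRNA of neural progenitors, varied most among the 11, with an SD within groups of 1.66. Its level in controls 1, 2, 3, 13 and 14 was −3.61, −4.01, −1.16, −1.71 and −5.50, and in OS mice 10, 17, 18 and 19 it was −2.16, −0.10, −2.39 and −3.71. The groups overlapped in part: OS mouse 17 lay above all detected controls, and controls 2 and 14 lay below all detected mice with OS. The difference among detected mice was 1.11 (SE 0.89, limma adjusted p = 0.431). It was 0.45 without OS mouse 17 and 0.53 without control 14, against 1.64 without OS mouse 19, and it became −0.33 at a Cq limit just under the cap, which brings in the other control and 4 mice with OS. miR-137, which acts in neuronal maturation, had a level of −3.30 ± 1.27 in controls (SD, n = 5; −4.79 to −1.72) and −3.13 ± 0.69 in mice with OS (SD, n = 8; −4.73 to −2.56). Its difference was 0.17 (SE 0.51, limma adjusted p = 0.854).

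**Figure D5:**
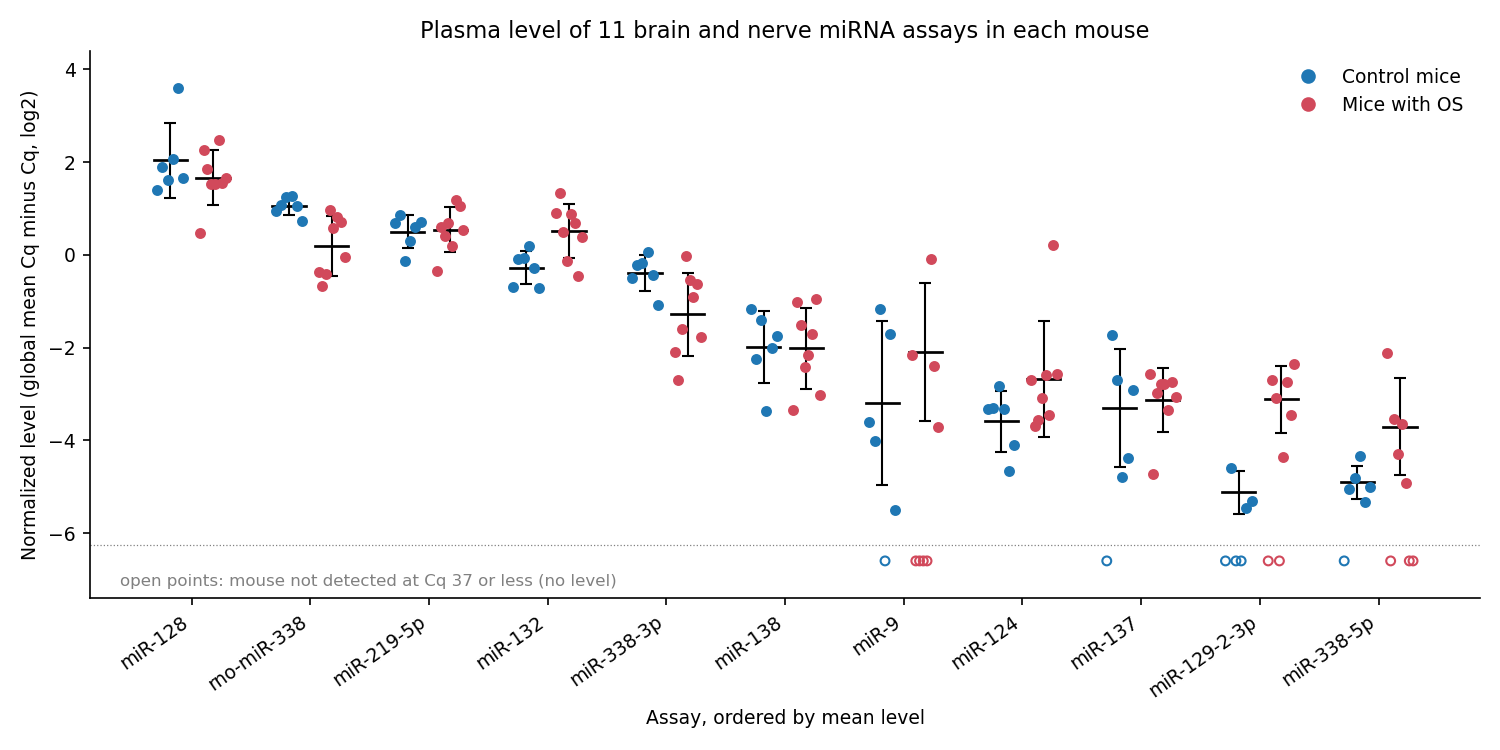
Normalized level (log2) of the 11 assays in each mouse, ordered by mean level, with 1 point per mouse, lines for the mean and bars for the SD of each group; open points at the bottom are mice without a level. All 6 detected mice with OS lie above the 3 detected controls for miR-129-2-3p, 6 of 8 lie above all controls for miR-132, and 6 of 8 lie below all controls for rno-miR-338. How common such separation is over all miRNAs is not given here.

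For the 8 assays with a value in 12 or more mice, the miRNAs that ran closest over mice were taken as those with the smallest SD of the difference in level, out of 315 to 330 candidates whose median SD was 0.99 to 1.45. These values describe 12 to 14 mice that share their scaling. rno-miR-338 and miR-338-3p were each other's closest, at 0.30, and both were followed by miR-29a* (0.32 and 0.45). miR-132 ran with miR-328 (0.29), miR-423-5p (0.38) and miR-320 (0.44), and miR-138 with miR-210 (0.46), miR-674 (0.56) and miR-1930 (0.62). miR-219-5p ran with miR-29a (0.46), miR-362-3p (0.47) and miR-125b-2-3p (0.48), and miR-128 with miR-181a-1* (0.43), miR-19b (0.54) and miR-185 (0.56). The closest to miR-124 was miR-1247 (0.81) and the closest to miR-137 was miR-146a (0.78). Apart from the miR-338 pair, none of the 8 had another brain and nerve assay among its 3 closest. With so many candidates such a place would be rare by number alone, so this says little on whether the assays run together. Beyond the 3 closest, the other assays stood at places 7 (miR-219-5p) to 278 (miR-124) for miR-128. For miR-138 they stood at places 7 (miR-219-5p) to 203 (miR-124).

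Summed blood-cell markers had lower means in mice with OS, but not every marker was lower. The levels of a list were summed on the linear scale, and the log2 of that sum is given. For the 3 red-cell markers it ran from 11.86 to 13.91 in controls and from 8.99 to 12.89 in mice with OS. Of the 3 estimates, 2 were lower in OS, with miR-144 called, and 1 was higher. For the 5 white-cell marker assays it ran from 8.27 to 9.55 in controls and from 7.56 to 8.30 in mice with OS. Here 4 estimates were lower, with miR-142-3p called, and 1 was higher. Platelet and vessel markers ran from 8.08 to 8.90 in controls and from 7.83 to 8.57 in mice with OS, liver markers from 7.82 to 10.56 and from 8.54 to 12.10, and skeletal muscle markers from 5.76 to 7.92 and from 5.06 to 8.86, with none called. The haemolysis marker entered the fits given beside the assays, and the part of the white-cell, platelet, liver and muscle markers in the brain and nerve values was not tested.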

How the data were processed

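The study ran plasma RNA of each mouse on Exiqon mouse miRNA panels I and II. The authors deposited 1 table of Cq values, on a log2 scale, not normalized between mice, with values capped at 40 and blanks for missing wells; whether plates had been calibrated is not stated. A second deposited table names 392 of the 768 wells and holds fold changes and p-values of the authors' comparison, which were not used. Wells without a name were not analysed here. The methods name 14 mice with OS, of which 8 were analysed here.

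After the study's methods, a Cq above 37 counted as missing, miRNAs absent from 75% or more of the mice were dropped (388 of 389 remained), and Cq values were subtracted from the global mean Cq of their mouse; for that mean alone, a missing value took its group's mean or Cq 38. Missing values stayed missing in the test. Groups were compared with limma 3.58.1 in R 4.3.3 (Benjamini-Hochberg over 388 miRNAs), tested on simulated data, and single values and detection with exact tests in Python 3.11.15 and scipy 1.17.1. Cq values carry no read counts, so the spread used in the tests was that between mice. The precision of single wells of the brain and nerve assays, also of those near the Cq limit, was not estimated.

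Alternatives were other scalings, a Cq limit of 35 and another just under the cap of 40, fills for missing values, filters, the methods' t-test, haemolysis as a covariate, and fits without single mice. Leaving out mice by haemolysis marker, the comparisons within a mouse and the ranks were chosen after seeing the data. The 11 assays, the other nervous-system list and the marker lists were chosen with earlier results of these data known. The rule for names took all 11 assays, the 3 miRNAs closest to each assay with values in 12 or more mice, the called and the 3 lowest-p other nervous-system miRNAs, and the haemolysis and reference miRNAs.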

Additional observations from a re-analysis of the deposited data

Results flagged for a closer look

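In the 21 groups of assay values that could be checked, 4 held a mouse far from the others, and chance gives such a mouse in about 1 in 20 groups. Control 13 had the highest miR-128 level of the controls, at 3.60, which is 1.54 above the next. OS mouse 10 had the lowest miR-128 level of the mice with OS, at 0.48, which is 1.06 below the next. OS mouse 18 had a miR-124 level of 0.22, which is 2.78 above the next mouse with OS. OS mouse 11 had a miR-137 level of −4.73, which is 1.39 below the next.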

How the results depend on the processing

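The method limits the low assays: 17 of 154 measurements lay between Cq 36 and 37 and 15 gave no level, so a group difference among detected mice leaves out the lowest ones. The Cq limit of 35 and the filter to miRNAs measured in every mouse left miR-129-2-3p without a test. No paired analysis was possible because the sample labels do not say which mice were littermates. Scaling moved the median difference over all miRNAs, −0.00 with the global mean, to 0.14 with the median of the always-measured miRNAs, −0.14 with all wells and −0.45 unscaled. Of the paper's 3 reference miRNAs, miR-103 was itself called lower in OS with the global mean (−1.28, limma adjusted p = 0.0295). miR-191 (0.42) and miR-423-3p (1.03) had higher estimates that were not called (limma adjusted p = 0.498 and 0.108).

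The 1 assay called higher became 0 with unscaled Cq, missing values at Cq 38, Cq limits of 35 and just under the cap of 40, miRNAs measured in every mouse, the methods' t-test (adjusted p = 0.0519 for miR-129-2-3p), the haemolysis covariate, and without the mice whose haemolysis marker was over 7 (1.83, limma adjusted p = 0.112) or under 3 (1.90, limma adjusted p = 0.112). It ran from 0 to 2 when 1 mouse was left out. miR-129-2-3p kept its call with the 3 reference miRNAs, the median, each panel's own mean and all wells, where limma's adjusted p was 0.0187 to 0.0389. With no filter its result was that of the main fit (2.00, limma adjusted p = 0.0261). Group-mean fills gave each undetected mouse the mean of its own group, so that fit (1.38, limma adjusted p = 0.0273) was no independent check. None of the 11 was called lower in any of these fits. The number of other nervous-system miRNAs called higher became 2 with the median (miR-139-3p joined miR-212-3p), missing values at Cq 38 and the Cq limit under the cap, 3 with each panel on its own mean (with miR-874), and 0 with all wells, unscaled Cq, the Cq limit of 35, the t-test, the haemolysis covariate, and without the mice with a marker over 7 or under 3. It ran from 0 to 3, and the number called lower from 0 to 1, when 1 mouse was left out.

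Over all miRNAs, 24 higher and 25 lower became 4 higher with unscaled Cq, 14 and 15 with the Cq limit of 35, 10 and 14 with the methods' t-test, 11 and 6 with the haemolysis covariate, 11 lower with the 3 reference miRNAs, 14 lower with the median, 10 and 10 without the mice with a marker over 7, and 4 and 4 without those under 3. Leaving out 1 mouse gave 13 to 35 higher and 7 to 38 lower.

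Differences that were not called turned sign as follows. miR-219-5p was −0.02 with the 3 reference miRNAs, −0.10 with all wells, −0.40 unscaled, −0.01 at the Cq limit of 35, −0.11 without the mice with a marker over 7, and −0.09 to 0.17 when 1 mouse was left out. miR-138 was 0.11 with the median, 0.22 with each panel's mean, 0.02 with missing values at Cq 38, 0.03 and 0.0027 at the Cq limits of 35 and under the cap, 0.02 with miRNAs measured in every mouse, 0.23 with the haemolysis covariate, 0.10 without the mice with a marker over 7, and −0.29 to 0.17 when 1 mouse was left out. miR-9 was −0.35 with missing values at Cq 38, −0.21 at the Cq limit of 35 and −0.33 at that under the cap. miR-137 was −0.0035 with all wells, −0.49 unscaled, −0.06 with group-mean fills, and −0.19 to 0.57 when 1 mouse was left out. The gap of miR-338-3p to rno-miR-338 was −0.11 to 0.04 between the groups when 1 mouse was left out. The cause was not tested for any of these. The 3p to 5p comparison of miR-338 had p from 0.0556 to 0.0635 (exact permutation) without control 2, 3, 4 or 13. The miR-212-3p to miR-132 comparison had p = 0.0344 without OS mouse 15 and p = 0.00466 without OS mouse 17 (exact permutation). Detection gave no assay an unadjusted Fisher p under 0.05 at any Cq limit or without any mouse, and the haemolysis difference ran from −1.96 to −1.13.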
